A study of Mus musculus with 12 samples.

Results

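Among the probes of an Illumina mouse expression array, 89 probes for 86 genes lost detection in cultured podocytes when the cells had been given DZNep. The probes were chosen by their detection p-values, a measured value of these arrays. A probe was counted when it carried a gene symbol, had a detection p-value under 0.05 on at least 5 of the 6 arrays without DZNep, and had one of 0.05 or above on at least 5 of the 6 arrays with it. The detection p-value compares a probe's signal with that of the array's negative control probes. The array names 19074 genes, and the 89 probes were 0.255% of its 34903 probes with a symbol and 0.621% of the 14332 probes detected on at least 5 of 6 arrays without DZNep. The same rule turned round gave 74 probes for 74 genes that gained detection, and a further 23 probes without a gene symbol met the rule as it stands.

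The arrays held total RNA of cultured mouse podocytes in 4 groups of 3. Control cells received neither agent. The other groups had DZNep for 48 h, high glucose for 48 h, or high glucose and DZNep together for 48 h. Cultures without high glucose are called normal glucose here, although their concentration is not known. The labels give the source of all 4 groups as a cell line; its name, the genotype, the dose of DZNep and the glucose concentrations are not given in the sources used here. Whether replicates came from separate cultures is not stated. The p-values thus measure the spread between samples, which may be technical, and 3 arrays a group limit the precision. In bulk RNA, fewer cells expressing a gene and less of its RNA per cell cannot be told apart.

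The series calls DZNep an EZH2 inhibitor. EZH2 is the enzyme that places methyl groups on lysine 27 of histone H3 within Polycomb repressive complex 2 (PRC2), a mark of silenced genes. The compound is known to block S-adenosylhomocysteine hydrolase, so that S-adenosylhomocysteine accumulates and restrains many methyltransferases. Podocytes are the epithelial cells whose foot processes and slit diaphragms cover the glomerular capillaries of the kidney.

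Each array detected 38.4% to 41.3% of its 45281 probes, with a median raw signal of 133 to 151 and pairwise array correlations of 0.973 to 0.996. Control replicate 3 had a score of -26.6 on the second principal component, and the scores of the other arrays are not given here. Of 13 podocyte markers 10 were on the array, and 7 were detected on at least 5 of 6 arrays both without and with DZNep (Actn4, Cd2ap, Nes, Nphs1, Podxl, Synpo and Vim), whereas Ptpro and Tcf21 were detected on no array. Markers of other cell types were partly detected, in the same numbers without and with DZNep, namely 3 of 7 endothelial, 4 of 7 mesangial, smooth muscle and fibroblast, 5 of 8 tubular, 3 of 5 parietal and 1 of 6 leukocyte genes. The summed raw signal of the podocyte markers was 36704 to 43155 in control, 33958 to 38348 in high glucose, 30650.1 to 33857 with DZNep and 33742 to 35511 with both. That of the endothelial markers was 1321 to 1473, 1295 to 1365, 1214 to 1286 and 1231 to 1288 in the same order. The mesangial, smooth muscle and fibroblast sum was 64939 to 69585, 63923 to 65876, 52833 to 56882 and 59398 to 61265. The tubular sum was 15727 to 20747, 20847 to 23466, 12417 to 16306 and 19128 to 20663, and the parietal sum 3049 to 3714, 2553 to 3466, 2652 to 2929 and 3133 to 3297. The leukocyte sum was 877 to 997, 844 to 902, 966 to 998 and 896 to 954, and the endothelial genes Cdh5, Emcn and Pecam1 and the leukocyte genes Itgam, Lyz2 and Ptprc were detected on no array. These sums are raw, with no scaling between arrays. The raw podocyte, mesangial, endothelial and parietal sums were lower on the 3 DZNep arrays than on the 3 control arrays, without overlap. In high glucose the podocyte and parietal sums did overlap between arrays without and with DZNep. The median raw signal of all probes was 151, 145 and 140 on the control arrays and 135, 141 and 139 on the DZNep arrays. The share of all probes separated in this way on raw values was not computed. The part of these sums in the results below was not tested.

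The 89 probes were dim before DZNep, and their signal was only slightly lower with it. Their mean raw signal on the arrays without DZNep had a median of 168 and ran from 157 to 259, while the lowest signal that counted as detected was 149 to 165 depending on the array. On the arrays with DZNep the median was 144, with a range of 126 to 150.0. All 16311 probes tested had a median of 410.3 without DZNep and a lower quartile of 197, and 86 of the 89 lay below that quartile. The ratio of the raw means was over 1.5 for 1 probe, that of Mrgprf. The description of these genes as switched off therefore goes further than the measurements, which show dim signals that crossed the detection limit.

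**Figure D1:**
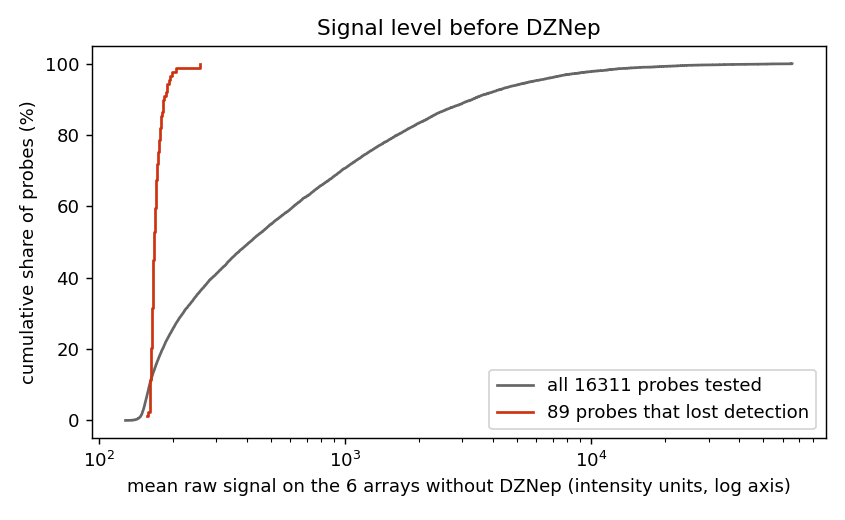
Cumulative share of probes (vertical axis, %) against the mean raw signal on the 6 arrays without DZNep (horizontal log axis, intensity units), for the 89 probes that lost detection and for all 16311 probes tested. The 89 probes lie between 157 and 259, and 86 of them lie below 197, the lower quartile of all probes.

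The loss was not the same on every array. On the control arrays 89, 82 and 73 of the 89 probes were detected, and on the high glucose arrays 81, 82 and 74. On the DZNep arrays 6, 15 and 11 were detected, and on the arrays with high glucose and DZNep 5, 2 and 10. A full pattern, with detection on all 6 arrays without DZNep and on none with it, was seen for 18 probes. A further 18 were detected on 6 and 1 arrays, 22 on 5 and 0, and 31 on 5 and 1.

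On the log2 scale after background correction and quantile normalisation, the median change of the 89 probes was -0.54 for DZNep against control, from -1.43 to -0.16, beside a median of 0.03 over all 16311 probes. In high glucose it was -0.52, from -2.06 to 0.02, beside 0.01 over all probes, and Hpgds was the probe with the positive value. These values come from the arrays that chose the probes and are a description with no test. The mean drop over both glucose levels had a median of 0.52, and it was over 1 for 6 probes (Mrgprf, Atp1b2, Kcnh2, Spo11, Blnk and Them7) and under 0.5 for 42. The median SD between the 3 arrays of a group was 0.20 in control, 0.19 in high glucose, 0.17 with DZNep and 0.14 with both agents. All 6 arrays with DZNep lay below all 6 without it for 32 of the 89 probes, and among all probes tested this was the case for 7.52%. The rule fixes much of this count, and nothing is read from it.

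A fold change is only a bound where no array of a group detected the probe. The control mean was then set against the limit of detection on the DZNep arrays, or against the probe's own signal where that was higher, on the scale above. This gave a bound for 57 probes in normal glucose, with a median of at least 1.19-fold. It was over 1.5 for 7 probes, those of Mrgprf, Atp1b2, Kcnh2, Blnk, Them7, Fcgr4 and Zcchc14, and under 1 for 2, for which no fold is given. In high glucose there was a bound for 72 probes with a median of at least 1.18-fold, over 1.5 for 10 and under 1 for 6.

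**Figure D2:**
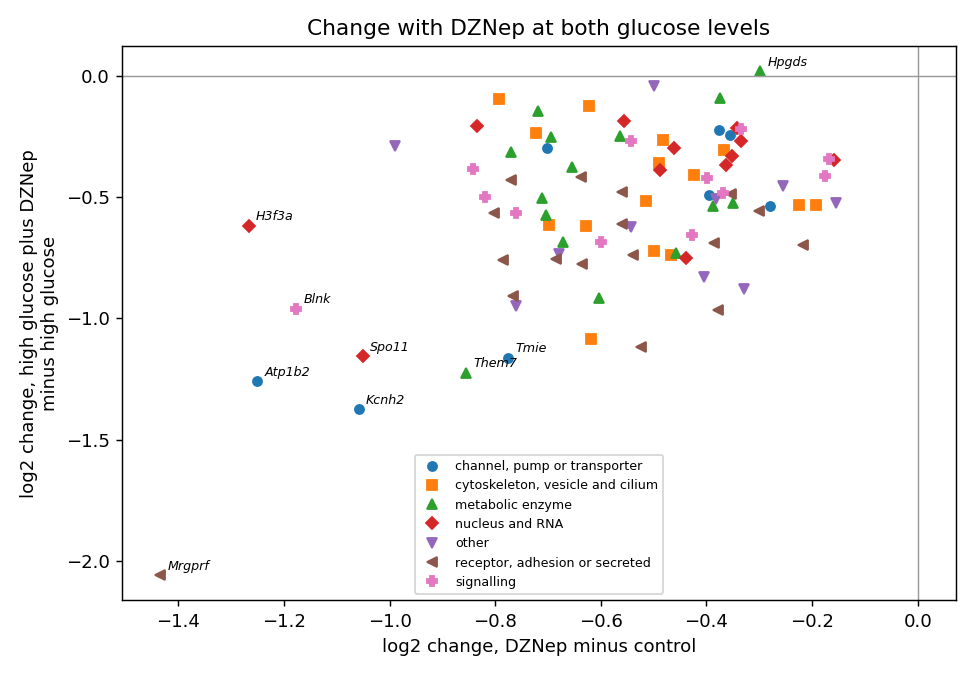
Log2 change with DZNep in high glucose (vertical axis) against the log2 change with DZNep in normal glucose (horizontal axis) for the 89 probes, with symbols for the role of the product. The medians are -0.54 and -0.52, and Mrgprf lies lowest at -1.43 and -2.06.

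The largest drop was that of Mrgprf, which encodes an orphan G protein-coupled receptor of the Mas-related family. Its raw signal was 272, 216 and 191 on the control arrays, 282, 287 and 303 in high glucose, 135, 149.5 and 148 with DZNep, and 143, 152 and 152 with both. All 6 arrays without DZNep lay above all 6 with it. Here and for the genes below, such separation was in large part set by the choice of probes. Nothing is read from it. Mrgprf was detected on none of the 3 DZNep arrays and on 1 of the 3 arrays with both agents, so it was not among the probes with the full pattern. Control was at least 2.26-fold above DZNep, and the log2 change in high glucose was -2.06.

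Channels, pumps and transporters were 8 probes for 8 genes, with a mean drop of 0.30 to 1.25 (median 0.47) and 2 probes with the full pattern. Atp1b2 encodes a beta subunit of the sodium and potassium pump, best known from glia and neurons. The probe read 228, 204 and 185 in control, 181, 214 and 223 in high glucose, 146, 145 and 129.7 with DZNep, and 146, 149 and 139 with both. Detection was lost on every array with DZNep, and the arrays without it all lay higher. The bounds were at least 1.87-fold in normal glucose and at least 2.09-fold in high glucose.

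Kcnh2 encodes the pore-forming subunit of the rapid delayed rectifier potassium channel of the heart. Raw signals were 203, 190.1 and 175 in control, 187, 177 and 207 in high glucose, 124, 145 and 145 with DZNep, and 119.6, 130.5 and 140.3 with both. All arrays without DZNep lay above all with it, and the bounds were at least 1.55-fold and at least 1.77-fold. The remaining members of this group were Tmie, a part of the mechanotransduction channel complex of hair cells (mean drop 0.97), Slc6a17, a vesicular carrier of neutral amino acids (0.50), Abca4, a retinoid flippase of photoreceptors (0.44), and Slc9a9, an endosomal sodium and proton exchanger (0.41). Scn2b and Kcnab1, auxiliary subunits of sodium and potassium channels, had mean drops of 0.30 each.

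Receptors, adhesion molecules and secreted proteins formed the largest group, 17 probes for 16 genes with a mean drop of 0.42 to 1.75 (median 0.64) and 4 probes with the full pattern. Fcgr4, a receptor for the Fc part of IgG known from myeloid cells, had raw signals of 179, 193 and 186 in control, 173, 178 and 179.6 in high glucose, 146, 140.2 and 152 with DZNep, and 149, 129 and 140.4 with both. The arrays without DZNep all lay above those with it, with bounds of at least 1.5-fold and at least 1.49-fold. Prrt4, a proline-rich transmembrane protein, had raw signals of 199, 186 and 169 in control, 169.8, 177 and 189.6 in high glucose, 144, 152 and 144 with DZNep, and 145, 152 and 141 with both. Its arrays without DZNep likewise lay above those with it, with bounds of at least 1.43-fold and at least 1.52-fold.

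Ccl25 encodes a chemokine that draws lymphocytes to the thymus and small intestine. It gave raw signals of 179, 173 and 162 in control, 173, 165 and 153 in high glucose, 128, 133 and 139 with DZNep, and 149, 131 and 140.2 with both. The bounds were at least 1.19-fold at either glucose level. Ltbp4, which binds latent TGF-beta in the matrix, also had the full pattern, with raw signals of 197, 182 and 169 in control, 158, 164 and 162 in high glucose, 134, 144 and 151 with DZNep, and 139, 141 and 149 with both. Its bounds were at least 1.40-fold and at least 1.15-fold.

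The other members of the group were Scara5, a scavenger receptor for ferritin (mean drop 0.77), Flrt1, a transmembrane adhesion protein with leucine-rich repeats (0.64), the clustered protocadherin Pcdhb14 (0.59) and both probes of the secreted olfactomedin Olfm1 (0.67 and 0.54). The protease Adamts16 had a mean drop of 0.71, the serine protease Prss46 one of 0.82, and Cpn1, the catalytic subunit of carboxypeptidase N, one of 0.42. Lamc3, a laminin gamma chain, Oit3, a secreted protein known from liver, Ifitm5, a membrane protein of osteoblasts, and Dipk2a, a secretory pathway protein, had mean drops of 0.43, 0.52, 0.46 and 0.53.

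Metabolic enzymes were 15 probes for 14 genes, with a mean drop of 0.14 to 1.04 (median 0.52) and 3 probes with the full pattern. Cyp7b1 is the oxysterol 7-alpha-hydroxylase of the alternative bile acid pathway. Its raw signal was 179, 176 and 166 in control, 185, 178 and 178 in high glucose, 144, 147 and 135 with DZNep, and 142, 145 and 139 with both. The bounds were at least 1.23-fold and at least 1.57-fold, and the arrays without DZNep all lay above those with it.

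Ugt1a6a, a UDP-glucuronosyltransferase that conjugates phenols, had raw signals of 168, 169 and 191 in control, 160.4, 165 and 169 in high glucose, 135, 137 and 149 with DZNep, and 149, 145 and 129 with both. The bounds were at least 1.27-fold and at least 1.22-fold. Ugt1a6a has a near-identical neighbour and shares exons with its gene cluster, so its signal is uncertain as to the gene of origin. The third probe with the full pattern belonged to Mettl7a1, a methyltransferase-like membrane protein (mean drop 0.59).

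Them7, a thioesterase superfamily member, had the largest mean drop of the enzymes, 1.04, with detection on 1 array with DZNep. The others were the fatty acid enzymes Acacb (0.44) and Acot2 (0.23), the phospholipase Pnpla8 (0.43), the prostaglandin D synthase Hpgds (0.14), both probes of the kynurenine formamidase Afmid (0.61 and 0.47) and the mitochondrial deacylase Sirt5 (0.46). Dut, which removes dUTP, had a mean drop of 0.52, Pnkd, a hydrolase-like protein, one of 0.54, Atp5pb, a subunit of ATP synthase, one of 0.68, and the hydroxylase Asph one of 0.41.

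Signalling proteins were 12 probes for 11 genes, with a mean drop of 0.26 to 1.07 (median 0.48) and 3 probes with the full pattern. Blnk is the adaptor that links the B cell receptor to its kinases. Its probe with the larger drop had raw signals of 217, 180.4 and 205 in control, 173, 189 and 196 in high glucose, 134, 143 and 144 with DZNep, and 147, 143 and 143 with both. Its arrays without DZNep all lay above those with it, and the bounds were at least 1.76-fold and at least 1.68-fold. The other Blnk probe among the 89 had a mean drop of 0.64.

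Eif2ak3 encodes PERK, the kinase of the endoplasmic reticulum that phosphorylates eIF2 alpha in the unfolded protein response. The probe read 202, 193 and 162 in control, 161, 169 and 159 in high glucose, 146, 145 and 142 with DZNep, and 135, 143 and 139.9 with both. The lowest arrays without DZNep lay above the highest with it, and the bounds were at least 1.44-fold and at least 1.17-fold. Rasa4, a Ras GTPase-activating protein, had the full pattern as well, with a mean drop of 0.61.

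The remaining signalling genes were Tbc1d16, a Rab GTPase-activating protein (mean drop 0.66), Sesn3, a sestrin that restrains mTORC1 (0.54), Guca1a, an activator of retinal guanylate cyclase (0.43), and Shoc2, a scaffold of the Ras to ERK path (0.41). Ppp2r5c, a regulatory subunit of protein phosphatase 2A, had a mean drop of 0.41, the apoptosis repressor Nol3 one of 0.30, the kinase Camk1d one of 0.28 and the adaptor Cmip one of 0.26.

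Nuclear and RNA-binding proteins were 12 probes for 12 genes, with a mean drop of 0.25 to 1.10 (median 0.37) and 1 probe with the full pattern, that of Spo11. Spo11 makes the DNA breaks that start meiotic recombination and is known from germ cells. Raw signals were 195, 183 and 167 in control, 169, 186 and 169 in high glucose, 129, 133 and 136 with DZNep, and 127, 131 and 120.5 with both. The arrays without DZNep all lay above those with it, with bounds of at least 1.39-fold and at least 1.43-fold.

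H3f3a, one of the genes for the replication-independent histone H3.3, had raw signals of 218, 192 and 249 in control, 166, 175 and 166 in high glucose, 137, 144 and 159.9 with DZNep, and 142, 143 and 145 with both. The high glucose arrays lay below all control arrays and above all arrays with DZNep. The homeobox gene Hoxa2, a regulator of hindbrain and pharyngeal arch patterning, had 187, 168 and 169 in control, 154, 160.3 and 151 in high glucose, 141, 152 and 147 with DZNep, and 142, 132 and 142 with both. Hoxa2 arrays in high glucose lay close to the limit of detection, and it was undetected on 1 of the 6 arrays without DZNep.

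The others were Mycl, a MYC family transcription factor (mean drop 0.59), Gemin8 of the SMN complex (0.52), the RNA-binding protein Larp4 (0.38), the origin recognition subunit Orc2 (0.37), the histone H4c4 (0.37), the decapping cofactor Dcp1b (0.34), the tRNA methyltransferase Trdmt1 (0.30), the corepressor subunit Tbl1xr1 (0.28) and Ice2 of the little elongation complex (0.25). H4c4 and H3f3a belong to families of near-identical coding sequence, and the probes' specificity was not analysed here.

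Cytoskeleton, vesicle and cilium proteins were 15 probes for 15 genes, with a mean drop of 0.34 to 0.85 (median 0.44) and 4 probes with the full pattern. Dmtn encodes dematin, which bundles actin under the red cell membrane. It gave raw signals of 171, 165 and 162 in control, 157, 192 and 157 in high glucose, 121, 141 and 134 with DZNep, and 151, 141 and 133 with both. The bounds were at least 1.08-fold and at least 1.27-fold. The other probes with the full pattern were those of the ciliary protein Armc9 (mean drop 0.61), the dynein light chain Tcte3 (0.60) and the raft protein Rftn2 (0.42).

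The synaptic vesicle protein Syn1 had the largest mean drop of this group, 0.85, followed in part by the septin Septin3 (0.62), the augmin subunit Haus4 (0.52) and the centrosomal protein Cep97 (0.48). Lower values were those of the sorting nexin Snx27 (0.44), the kinesin-binding protein Kifbp (0.43), the collapsin response mediator Dpysl2 (0.38), the exocyst subunit Exoc4 (0.37), the ankyrin Ank2 (0.37), the non-muscle myosin heavy chain Myh9 (0.36) and the syntaxin Stx8 (0.34).

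The last 10 probes were for 10 genes of no assigned group, with a mean drop of 0.27 to 0.85 (median 0.59). The F-box protein Fbxl16 was the member with the full pattern. Its raw signal was 208, 192 and 163 in control, 183, 177 and 181 in high glucose, 149, 151 and 144 with DZNep, and 148, 150.2 and 147 with both. All arrays without DZNep lay above all with it, with bounds of at least 1.48-fold and at least 1.56-fold. The others were Ccdc57 (0.85), Zcchc14 (0.64), Prr15 (0.62), Ttc14 (0.58), Lrrc27 (0.34), Klhl26 (0.27) and the gene models 4931415C17Rik (0.60), 9330151L19Rik (0.45) and 2810407A14Rik (0.35).

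**Figure D3:**
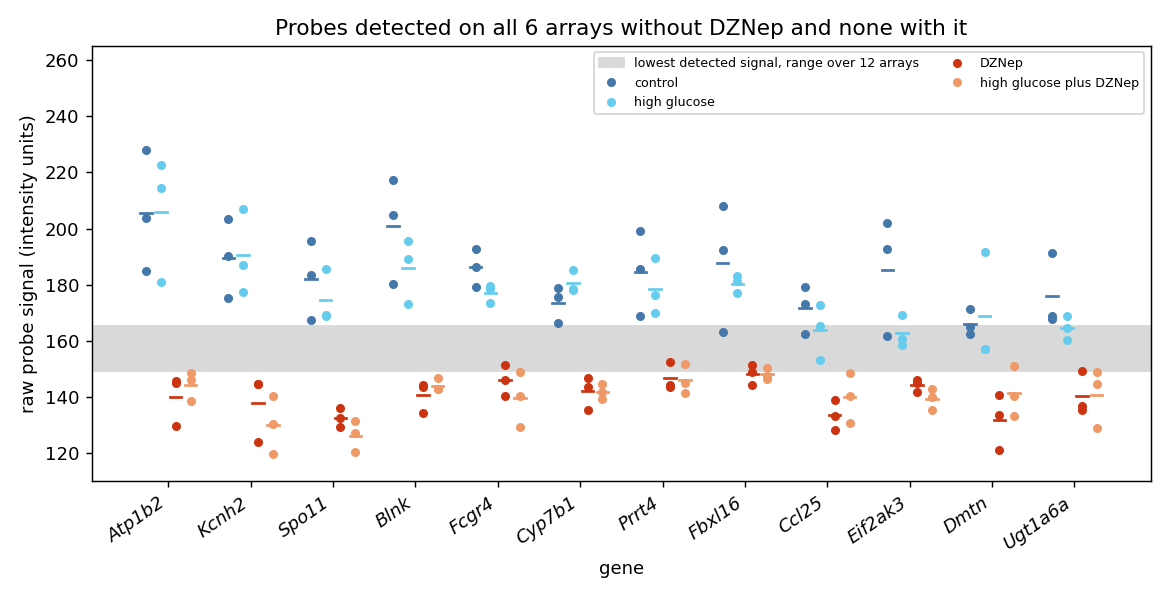
Raw probe signal (vertical axis, intensity units, starting above 0) on each array for the 12 genes with the largest mean drop among named genes detected on all 6 arrays without DZNep and on none with it. Points are single arrays of the 4 groups, and the grey band is the range over the 12 arrays of the lowest detected signal, 149 to 165. For all 12 genes the arrays with DZNep lie below those without it, which their choice by detection largely fixes.

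Near the limits of the rule, probes inside and outside had almost the same signal, apart from Mrgprf. On the side with DZNep the deciding detection p is the second smallest of the 6 arrays. The last probes inside were 2810407A14Rik and Mrgprf, at 0.0502, and the first outside were Slc6a15, a neutral amino acid carrier, and AU022252, with 0.0491. Their mean raw signals without and with DZNep were 165 and 145 for 2810407A14Rik, 259 and 147 for Mrgprf, 164 and 149.8 for Slc6a15, and 167 and 148 for AU022252. On the side without DZNep, where the second largest p decides, the last inside were Exoc4 (165 and 144) and Stx8 (162 and 144), at 0.0491. The first outside were Gm10914 (168 and 145) and Cd248, a stromal surface glycoprotein (163 and 144), at 0.0502. Several probes tied at these values, and those first in the table were taken.

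Tgfbi, an extracellular matrix protein induced by TGF-beta, stood outside the 89. Its mean drop over both glucose levels was nevertheless larger than that of every one of them except Mrgprf. The probe read 270.1, 247 and 244 in control, 300.3, 312 and 286 in high glucose, 145, 145 and 148 with DZNep, and 176, 171 and 189.5 with both. It was undetected on all 3 DZNep arrays but detected on all 3 arrays with both agents. The log2 change was -1.76 in normal glucose (limma, adjusted p = 1.19e-06) and -1.39 in high glucose (adjusted p = 6.66e-06), and a second Tgfbi probe was detected on no array. Among the 16311 probes tested, 56 had a mean drop over 1, and 6 of these were among the 89 while 39 were detected on all 6 arrays with DZNep.

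Many of the genes were still detected with DZNep at another probe. Of the 86 genes 64 had another probe on the array, 158 probes in all, and 22 had none. Of the 158 probes, 54 were detected on no array, and 84 probes for 43 genes passed the filter for testing. Another probe was detected on all 6 arrays with DZNep for 33 genes. Their changes with DZNep concern the contrast that chose the genes and are given without a test. The mean change of the 84 probes had a median of -0.21 and ran from -1.44 to 0.86. It was negative at both glucose levels for 55 (65.5%), beside 32.8% of all probes tested, positive at both for 9 and mixed for 20, and 13 were lower by 0.5 or more.

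Some genes had bright further probes that were lower with DZNep but stayed well above the detection limit. Another Myh9 probe had a mean raw signal of 10769 without and 8337 with DZNep (mean log2 change -0.24), and one for Dpysl2 had 6668 and 5239 (-0.27). Another H3f3a probe had 5713 and 3345 (-0.71), and the ATP synthase subunit Atp5pb had 2321 and 1436 at one further probe and 2651 and 1649 at another (both -0.65). In normal glucose these H3f3a and Atp5pb probes changed by -0.89, -0.87 and -1.04, and in high glucose by -0.53, -0.44 and -0.27. These 4 genes were thus detected on all 6 arrays with DZNep.

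At some other genes a further probe was lower as well. The further Kcnh2 probe had 219 without and 162 with DZNep (mean log2 change -0.89) and was detected on all 6 arrays with DZNep, while 2 more Kcnh2 probes were detected on at most 1 array. Flrt1 had 438 and 221 (-1.44), Slc6a17 375 and 219 (-1.14), and Dcp1b 258 and 172 (-1.07), all still detected on all 6 arrays with DZNep. The further probe of Hoxa2 had 218 and 170.1 (-0.69), that of Olfm1 218 and 162 (-0.86), that of Ltbp4 188 and 165 (-0.33), and that of Spo11 156 and 129 (-0.55). Ccl25 had 259 and 214 at one further probe (-0.35) and 466 and 350.0 at another (-0.45).

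Elsewhere probes of a gene moved in opposite directions. Armc9 had a further probe that went from 212 to 145 (-1.26) and another that went from 185 to 222 (0.77). A further probe of Abca4 went from 172 to 206 (0.86), one of Stx8 from 472 to 572 (0.46), and one of Dut from 587 to 629 (0.22). Of the 84 probes 49 were annotated to the same transcript as the probe that lost detection.

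**Figure D4:**
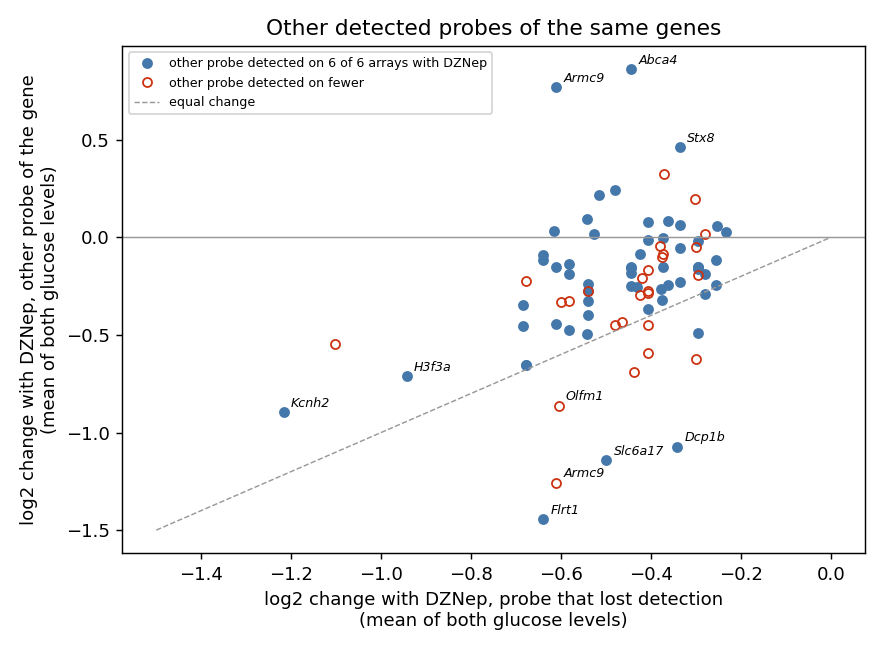
Mean log2 change with DZNep of other tested probes of the same genes (vertical axis) against that of the probe that lost detection (horizontal axis), with filled points for other probes detected on all 6 arrays with DZNep. The other probes run from -1.44 to 0.86 with a median of -0.21, and the dashed line marks equal change.

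The rule did not use the difference between high glucose and control, but it asked for detection on at least 5 of these 6 arrays. Probes that one of these groups lacked could not enter, so the counts for this contrast are in part set by the choice of probes, and nothing about the response of these genes to glucose is read from them. None of the 89 probes passed (limma, adjusted p under 0.05, adjusted over all 16311 probes), where 0.123% of all probes tested did, 0.0736% higher and 0.049% lower. At an unadjusted p under 0.05 there were 12 (13.5%), 5 higher and 7 lower, beside 18.0% of all probes, 9.44% higher and 8.54% lower. The median change was 0.00, with 43 negative and 46 positive values from -0.68 to 0.85, and the median over all probes was 0.02.

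The smallest p-values were those of Mrgprf, Cyp7b1, Tcte3 and Asph. Mrgprf was 7.47 ± 0.16 (log2, SD, n = 3) in high glucose and 6.61 ± 0.32 in control, a difference of 0.85 with an SE of 0.16 (limma, adjusted p = 0.0639). It passed without control replicate 1 (1.01, adjusted p = 0.0279) and with quantile normalisation and no background correction (0.46, adjusted p = 0.00934). All 3 high glucose arrays lay above all 3 control arrays for Mrgprf. Cyp7b1 differed by 0.39 (SE 0.11, limma, adjusted p = 0.125), Tcte3 by 0.34 (SE 0.10, adjusted p = 0.142) and Asph by -0.48 (SE 0.15, adjusted p = 0.150).

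**Figure D5:**
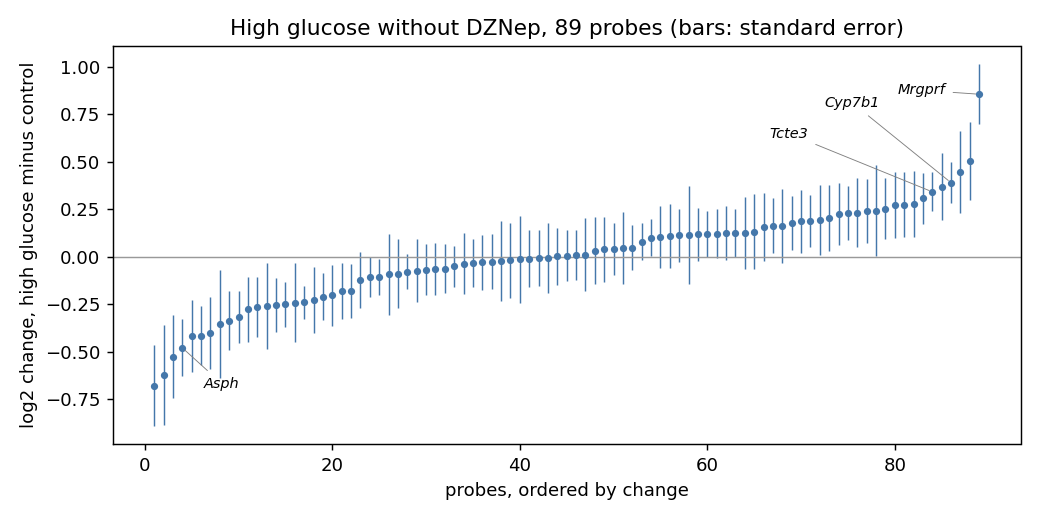
Log2 change in high glucose against control without DZNep (vertical axis) for the 89 probes in order of change (horizontal axis), with bars for the standard error from limma. Values run from -0.68 to 0.85 around a median of 0.00, and Mrgprf is the highest.

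Whether the change with DZNep differed between glucose levels was fitted as an interaction. The rule asked for loss at both glucose levels, so a probe that lost detection at only 1 of them could not enter, and the low counts here are no sign that the change was alike. None of the 89 probes passed (limma, adjusted p under 0.05), beside 0.0368% of all probes, 0.0184% higher and 0.0184% lower. At an unadjusted p under 0.05 there were 9 (10.1%), 6 higher and 3 lower, beside 15.6% of all, 7.95% higher and 7.65% lower. The median was -0.01, and -0.04 over all probes. The smallest p-values were those of Gemin8 (0.63, SE 0.18, limma, adjusted p = 0.163), Klhl26 (0.46, SE 0.15, adjusted p = 0.196), Olfm1 (-0.59, SE 0.20, adjusted p = 0.205) and Mrgprf (-0.62, SE 0.22, adjusted p = 0.236). Gemin8 was detected on 3 control, 2 high glucose and no DZNep arrays at either glucose level. Since the arrays with DZNep lay near background by the rule, these differences are bounded by the limit of detection.

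The upstream sequence of the genes was compared with that of all genes tested. RefSeq promoters (GRCm38.p6) were matched for 67 of the 86 genes and 8333 of the 10258 genes tested, and the 250 bases before the start were searched. For a gene with several promoters, CpG number, GC content and CpG ratio were averaged over them. A motif was counted if any of its promoters held it, so such genes had more chances of a match. Of the 67 genes 32 (47.8%) had an observed to expected CpG ratio of 0.6 or more, beside 66.9% of all genes tested. The median number of CpG dinucleotides was 13.5 against 16, and the median GC content 58.8% against 60.0%. The letters GGGCGG on either strand, a GC box, were found for 32 genes (47.8%) beside 64.5% of all, and TATAAA on either strand for 10 (14.9%) beside 8.21%. No test was made of these shares, and a match is not evidence of a bound factor. The genes tested were not matched to the 67 for signal, and 86 of the 89 probes lay below the lower quartile of all probes tested. The part of signal level in these shares was not tested. Among the value genes with a single RefSeq promoter, 2 of the 3 windows that tied for the most CpG (Prrt4, the third, is not shown) and the 2 with the fewest are shown 5′ to 3′ on the strand of the gene, with each CG in capitals. Eif2ak3 lies at chr6:70844265-70844514 on the plus strand, Kcnh2 at chr5:24329592-24329841 on the minus strand, Ugt1a6a at chr1:88134559-88134808 and Fcgr4 at chr1:171018676-171018925, both on the plus strand.
Eif2ak3: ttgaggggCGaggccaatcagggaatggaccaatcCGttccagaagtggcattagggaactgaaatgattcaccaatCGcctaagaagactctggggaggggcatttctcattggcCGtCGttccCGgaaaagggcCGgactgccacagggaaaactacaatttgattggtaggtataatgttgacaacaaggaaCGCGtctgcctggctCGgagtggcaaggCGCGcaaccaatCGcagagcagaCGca
Kcnh2: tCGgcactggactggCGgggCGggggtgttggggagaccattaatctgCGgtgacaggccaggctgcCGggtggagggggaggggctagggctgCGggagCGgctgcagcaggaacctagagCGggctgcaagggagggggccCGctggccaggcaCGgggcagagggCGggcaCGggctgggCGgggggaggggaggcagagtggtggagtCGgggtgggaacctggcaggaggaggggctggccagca
Ugt1a6a: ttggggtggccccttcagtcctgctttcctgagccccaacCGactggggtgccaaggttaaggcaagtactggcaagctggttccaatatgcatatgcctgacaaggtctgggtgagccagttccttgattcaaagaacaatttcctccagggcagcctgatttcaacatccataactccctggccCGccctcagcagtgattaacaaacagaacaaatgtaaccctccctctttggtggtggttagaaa
Fcgr4: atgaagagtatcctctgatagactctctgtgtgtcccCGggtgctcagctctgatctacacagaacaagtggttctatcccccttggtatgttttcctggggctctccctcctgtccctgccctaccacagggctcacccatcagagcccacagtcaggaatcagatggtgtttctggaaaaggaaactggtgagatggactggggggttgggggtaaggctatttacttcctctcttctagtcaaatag
The windows of Eif2ak3 and Kcnh2 hold 14 CG each, that of Ugt1a6a 2 and that of Fcgr4 1. Genes near the median number of CG of all genes tested and genes with hardly any both lost detection.

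The 83 protein-coding genes among the 86 with a chromosome in RefSeq lay on 20 chromosomes, at most 9 on one. In the order of genes, Dipk2a and Slc9a9 were direct neighbours, and Prss46 and Tmie were 2 steps apart.

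Probes of chosen pathway lists, taken outside the 89, were called in both directions with DZNep in every list but that of adhesion G protein-coupled receptors. Of the genes that lost detection, only Ltbp4 belonged to one of these lists. Over all probes 17.1% were called higher and 14.1% lower for DZNep against control, and 10.1% and 8.93% in high glucose (limma, adjusted p under 0.05). Of 47 probes for 28 genes of the TGF-beta pathway, to which Ltbp4 belongs, 12 were higher and 8 lower in normal glucose (median 0.04), and 11 and 4 in high glucose (median -0.01). After Tgfbi, the largest change was that of Ccn1, a matricellular protein, with 1.27 and 0.78 at one probe and 1.04 and 0.77 at another (limma, adjusted p = 0.00034, 0.00709, 5.48e-05 and 0.000486).

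Of 36 probes for 18 genes of lysyl oxidases and collagen-modifying enzymes 4 were higher and 7 lower in normal glucose (median 0.08), and 2 and 4 in high glucose (median -0.07). Loxl1, which crosslinks elastin, fell by 1.29 and 1.39 (limma, adjusted p = 1.55e-06 and 2.08e-06), and the prolyl hydroxylase P3h2 rose by 0.85 and 0.60 (adjusted p = 0.00168 and 0.0145). One probe of P4ha1 fell by 0.82 in normal glucose (adjusted p = 0.00467) and another differed by -0.03 (adjusted p = 0.862). In high glucose the lower probes were those of Loxl1, Loxl4 (2 probes) and Tgm2, and both higher ones were P3h2.

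Of 12 probes for 8 adhesion G protein-coupled receptors none was higher, where limma called 2 lower in normal glucose (median 0.01) and 4 in high glucose (median -0.11). Both Adgra1 probes were lower, with changes of -1.80 and -1.66 in normal glucose and -1.41 and -1.82 in high glucose (limma, adjusted p = 9.8e-06, 1.17e-06, 5.79e-05 and 9.75e-07), and both were detected on all 12 arrays. Adgra2 and Adgra3 were the other lower probes in high glucose.

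RNA of PRC2, the complex that holds EZH2, was measured by 21 probes for 9 genes, and the activity of the complex was not measured. In normal glucose 1 probe was higher (Rbbp4) and 6 were lower (median -0.17). In high glucose 1 was higher (Rbbp4) and 1 lower (Phf19), with a median of -0.11. Of 4 probes for Rbbp7, a histone-binding subunit, 3 fell by 1.69 to 1.73 in normal glucose (limma, adjusted p = 0.00371 to 0.00483), while the fourth differed by -0.06. In high glucose the same 3 differed by -0.11 to -0.27 (limma, adjusted p = 0.626 to 0.878). Without DZNep these 3 differed by -1.07 to -1.14 in high glucose against control (limma, adjusted p = 0.138 to 0.159). Ezh2 itself differed by -0.89 (adjusted p = 0.000117) in normal glucose and by -0.25 (adjusted p = 0.0928) in high glucose at its brightest probe, which was detected on all 12 arrays. Without DZNep this probe differed by -0.49 in high glucose against control (limma, adjusted p = 0.0738). A second Ezh2 probe detected on all 12 arrays differed with DZNep by -0.57 (adjusted p = 0.0579) in normal glucose and by -0.47 (adjusted p = 0.143) in high glucose. Of 19 probes for 10 genes of the methionine cycle and polyamine synthesis, 4 were higher and 4 lower in normal glucose (median 0.12) and 3 higher and 1 lower in high glucose (median 0.07). Mat2b, a regulatory subunit of methionine adenosyltransferase, fell by 1.07 and 1.05 at 2 probes and adenosine kinase, Adk, by 0.88 at 1 probe (limma, adjusted p = 0.0111, 0.025 and 0.00155). In high glucose the same Mat2b probes differed by -0.00 and -0.18 (adjusted p = 0.994 and 0.739) and the Adk probe fell by 0.49 (adjusted p = 0.0402). Another Adk probe went the other way, with 0.12 in normal glucose (adjusted p = 0.294) and 0.25 in high glucose (limma, adjusted p = 0.0496). A further Mat2b probe, detected on all 12 arrays, changed less, by -0.25 in normal glucose (limma, adjusted p = 0.044). In high glucose this Mat2b probe differed by -0.21 (limma, adjusted p = 0.108). Ahcy, which codes for S-adenosylhomocysteine hydrolase, had at its brightest probe a difference of 0.35 (adjusted p = 0.0374) in normal glucose and 0.14 (adjusted p = 0.430) in high glucose. A second detected Ahcy probe had 0.49 (limma, adjusted p = 0.0330) and 0.43 (adjusted p = 0.0782).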

How the data were processed

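Biotinylated cRNA made from total RNA was read on Illumina mouse arrays, per the labels. Linear intensity values, not normalized, and a detection p-value for each probe were deposited, per the file headers. The submitters' processing notes list GenomeStudio, with no version. The authors' processed intensity table was linear in the raw signal array by array, with a mean of 568.2545 on every array, and was used as an alternative.

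Intensities were corrected with normexp from the detection p-values (offset 16), quantile normalised and turned into log2 values by neqc (limma 3.58.1, R 4.3.3), so that folds of dim probes are understated. The platform annotation gave 34885 of 45281 probes 1 gene symbol, 18 several and 10378 none; 34807 matched RefSeq (GRCm38.p6), as did all 89 probes of the set. Probes with 1 symbol and a detection p under 0.05 on at least 3 of 12 arrays were tested (16311). The 4 group means were fitted with lmFit and eBayes, with p-values adjusted by the Benjamini-Hochberg method over all probes. The procedure was tested on simulated data.

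The members, roles and lists were chosen with earlier results of these data known. Every member gene is named; values on every array are given for the 12 named genes with the full detection pattern and the largest drop, and Mrgprf, H3f3a, Hoxa2 and Ltbp4 were added after their values were seen. For the high glucose and interaction tests the 4 smallest p-values are given, for each list up to 3 called probes by size, and Tgfbi always; other list genes with values or names were added after their values were seen. The labels number the replicates 1 to 3 in each group. Deviations of same-numbered arrays correlated at -0.262 to 0.209, with 2 of 18 over 0.1, so the numbers were not taken as pairs. Sequences are RefSeq's. Alternatives were other normalisations, filters, rule limits, the replicate number as a block and leaving out each array.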

Additional observations from a re-analysis of the deposited data

How the results depend on the processing

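With quantile normalisation and no background correction, the median change of the 89 probes was -0.19 for DZNep against control and -0.18 in high glucose, and with the authors' processed values -0.96 and -0.86; the authors' values differ in background, scaling and floor together. It was -0.50 for the 67 probes detected on at least 6 of 12 arrays. Leaving out 1 array gave -0.57 to -0.50 and -0.56 to -0.46. For high glucose 1 probe, Mrgprf, was called with quantile normalisation and no background correction (0.46, adjusted p = 0.00934), and 0 to 1 when 1 array was left out, with Mrgprf called without control replicate 1 (1.01, adjusted p = 0.0279). Over all alternatives its adjusted p reached 0.174. For the interaction the count was 0 under every alternative run, also without 1 array.

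The number of probes meeting the rule was 18 when all 6 arrays had to meet each part and 342 with at least 4 of 6. A detection limit of 0.01 gave 62 probes, of which 7 were shared with the 89. Leaving out 1 array gave 100 to 144, with 141 and 144 without high glucose replicates 2 and 3; all 89 stay by construction.

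In the pathway lists 21 probes were called higher and 27 lower for DZNep against control, 11 to 20 and 21 to 28 when 1 array was left out, the lowest without DZNep replicate 1. In high glucose 17 were higher and 14 lower, and 12 to 17 and 7 to 15 without 1 array, with 9, 8 and 7 lower without replicates 1, 2 and 3 of high glucose plus DZNep and 7 without high glucose replicate 2. There were 9 lower with the authors' values and 9 with no filter on dim probes. The replicate block changed no call of the high glucose or interaction tests (0 and 0 called) and gave 20 higher and 26 lower, and 13 and 11 in high glucose; 3 of 12 arrays correlated best with an array of their own number. The slide as a block was not run, since the files give no slide. No cause of these changes was tested. The signal over background limits every value here.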

Other observations

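With a detection limit of 0.01 in both parts of the rule, 62 probes lost detection, and 55 of them were not among the 89. The median raw signal of the 62 was 198 without and 159 with DZNep, and the median drop was 0.66 on the log2 scale. Chosen after their values were seen as those with the largest drops among the probes outside the 89, they included Tmem44 (1.37), the calcium channel subunit Cacna2d1 (1.27), a further Armc9 probe (1.26), the ecto-nucleotidase Nt5e (1.24), the elastase Cela1 (1.22), angiotensinogen, Agt (1.20), and the respiratory chain subunit Ndufv3 (1.09). The mean raw signal was 237 without and 153 with DZNep for Tmem44, 250.3 and 162 for Cacna2d1, and 219 and 149.5 for Nt5e. Atp1b2, Kcnh2, Blnk, Them7, Tmie, Atp5pb and Mrgprf met the rule at both limits.

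The 74 probes that gained detection with DZNep had a median raw signal of 149 without and 163 with it, a median log2 change of 0.59 and a maximum of 2.02, and 10 changed by over 1.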
